A study of Mus musculus with 3 samples.

Results

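Connective tissue collagens were examined by droplet single-cell RNA-seq of BLCs, the bone-lining cells found on bone surfaces. The members were the 10 rows of the count tables, of 32285 genes listed, with the symbols Col1a1, Col1a2, Col3a1, Col5a1, Col5a2, Col6a1, Col6a3, Col12a1, Col14a1 and Col22a1. The rule for them is a list of names and uses no measured value, but the list was chosen with earlier results of these data known. All 3 libraries (replicates 1, 2 and 3) came from WT mice without any treatment named, with no strain or age in the labels (the study's methods give young adult ages for its mice in general), and are 1 group of Alcam+Sca-1- cells that were also depleted of CD45+, Ter119+ and CD31+ cells after collagenase digestion of flushed femora, tibias and iliac bones. Collagenase and the sort both select among cells, so shares of cell types here are shares of what was released and gated. The study describes the libraries as independent samples without tying animals to libraries, so p-values below speak of these 3 libraries and not of animals. They weigh a difference between cell populations against the spread left once differences between libraries are taken out. That spread was estimated for each gene over all populations of the fit, including those not in the comparison.

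Fibrillar collagens form the cross-striated fibres of bone, tendon and skin. Type I, a heterotrimer of the chains encoded by Col1a1 and Col1a2, is the main organic component of bone, and type III, from Col3a1, accompanies it in softer tissues. Type V, from Col5a1 and Col5a2, is built into type I fibrils and limits their diameter. Type VI, which includes the chains of Col6a1 and Col6a3, forms beaded microfibrils around cells. Types XII, XIV and XXII, from Col12a1, Col14a1 and Col22a1, have interrupted triple helices and sit at fibril surfaces or at tissue junctions.

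Each library was compared within itself, between cell populations gated by marker lists that hold no collagen, so a difference in a collagen is not built into a gate. Of 20307 barcodes with 170781053 unique molecular identifiers (UMIs, one per captured transcript), 16398 cells entered a gate, 2391 entered none, and the others were removed by the cell filter or as presumed doublets. The osteoblast-like gate (marked by genes such as Bglap and Dmp1) held 39, 295 and 396 cells in replicates 1, 2 and 3. The tendon-like gate (Tnmd, Scx) held 88, 60 and 57 cells, and the fibroblast-like gate (Cd34, Clec3b) held 53, 37 and 38. CAR-like cells (for Cxcl12-abundant reticular cells, the stromal cells of marrow marked by Cxcl12 and Lepr) numbered 579, 80 and 108. Superficial-cartilage-like cells (Prg4, Cilp) numbered 320, 642 and 1138, and chondrocyte-like cells (Acan, Snorc) 242, 4601 and 6792. All 8 osteoblast, 7 tendon, 8 CAR and 8 chondrocyte markers were at their highest in their own gate, against 6 of 8 fibroblast markers (Pi16 and Dpp4 were higher in tendon-like cells) and 5 of 7 superficial cartilage markers. The gates were made from these same markers, so these counts describe the gates and do not test the cell types. Of the osteoblast markers, Phex was nearly as high in CAR-like cells and Mepe in chondrocyte-like cells. Replicate 1 stood apart before any collagen was considered. Chondrocyte-like cells were 9.89% of its cells against 70.7% and 69.1% in replicates 2 and 3, CAR-like cells were 23.7% against 1.23% and 1.10%, and its summed profile had a Pearson correlation of 0.926 with each of the other libraries, which had 0.989 with each other. Between 5 and 28 barcodes were shared by a pair of libraries.

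Levels are given as CPM, the UMIs of a gene per 1e+06 UMIs of the same summed cells. The kit counts a molecule once at its 3′ end, so no length enters, but capture may differ between transcripts. As a background for RNA free in the droplets, each member was also measured in blood cells, that is, the leukocyte-like and erythroid-like gates together (229, 146 and 275 cells). Blood cells had 93.8, 59.9 and 134 CPM of Col1a1 and 41.3, 43.0 and 96.6 CPM of Col1a2, and no other member passed 21.9 CPM there in any library. The erythroid-like gate alone was higher and uneven, with 11.7, 139 and 430 CPM of Col1a1, 6.29, 62.3 and 257 CPM of Col1a2, and up to 57.5 CPM of any other member (Col5a1). The levels of all members in each gate and library are shown in the plot of CPM by cell population.

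**Figure D1:**
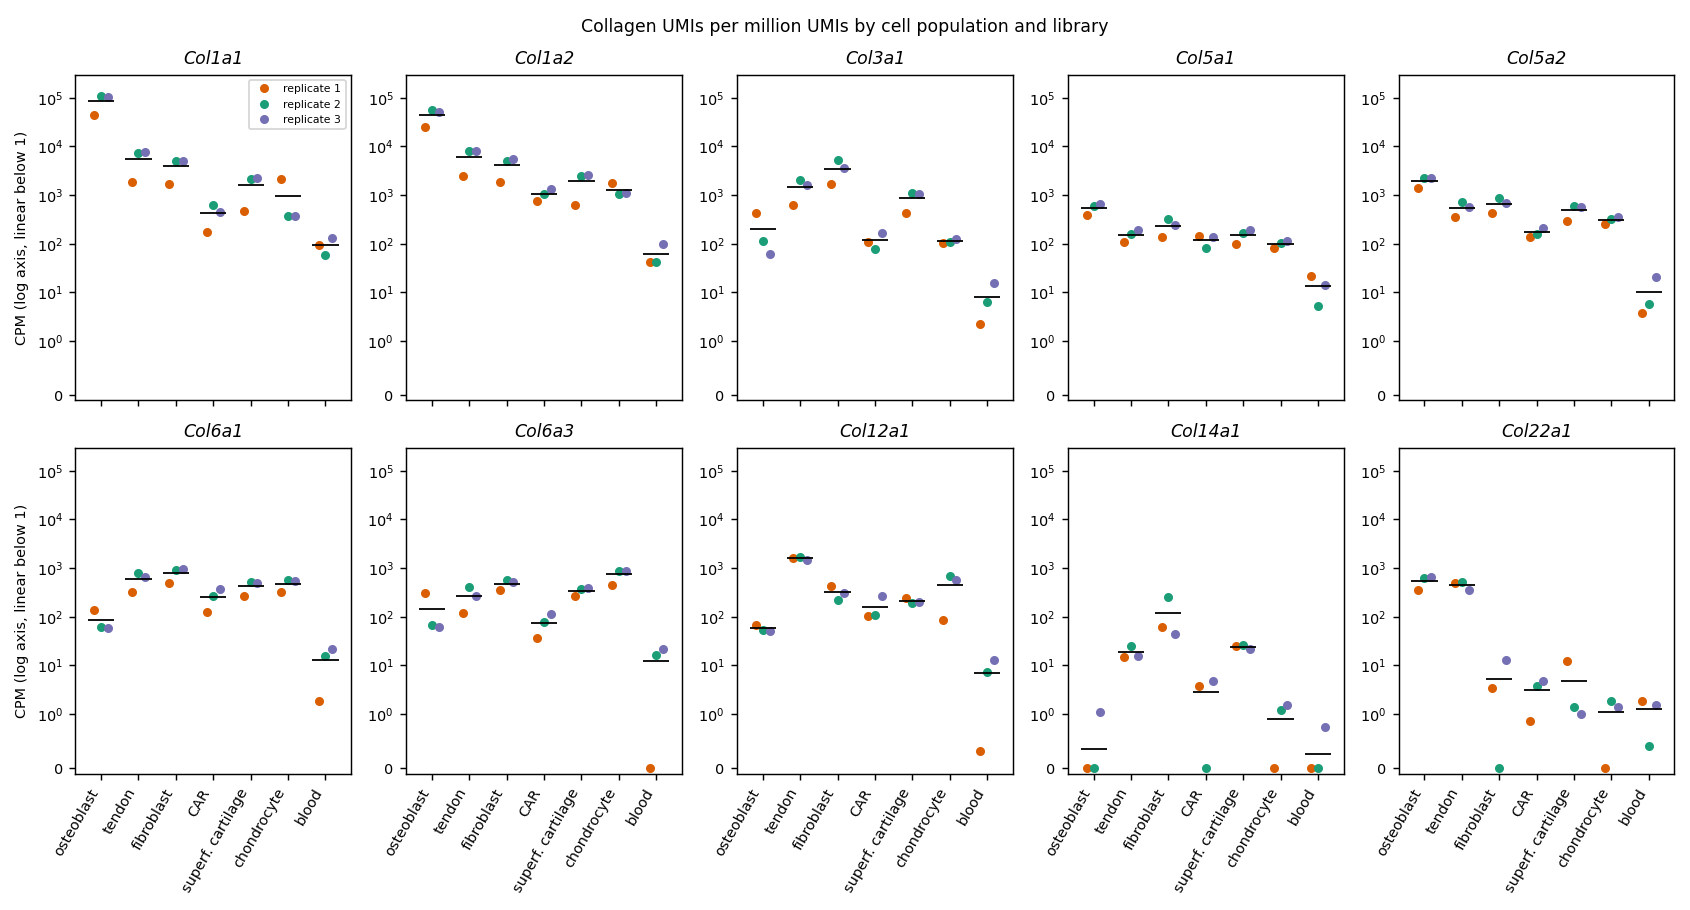
CPM of each of the 10 collagen genes (vertical axis, logarithmic and linear below 1 CPM) in 6 gated populations and in blood cells (horizontal axis). Points are the 3 libraries and lines their means. Col1a1 and Col1a2 were highest in osteoblast-like cells, Col12a1 in tendon-like cells and Col14a1 in fibroblast-like cells, and Col22a1 was above 300 CPM in osteoblast-like and tendon-like cells and at most 12.6 CPM in the others.

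Sequence upstream of the start was at hand for 5 of the 10 members in the RefSeq promoter table (GRCm38.p6): Col1a2, Col3a1, Col5a1, Col6a1 and Col6a3. Those of Col1a2, Col5a1 and Col3a1 are printed, as examples of chains that were high in osteoblast-like cells (the first pair) and of one that was low there, and no contrast between high and low members is drawn from them. The stretch of each 300-base window that lies before the RefSeq start and outside annotated exons (GENCODE vM21) is given 5′ to 3′ on the plus strand. For Col1a2 the RefSeq start lies inside the gene as GENCODE annotates it, so the stretch printed is inside that gene but outside its exons. Capitals mark matches on either strand to the motifs searched, which were GGGCGG first, TATAAA second and CCAAT last.
Col1a2, chr6:4505370-4505492: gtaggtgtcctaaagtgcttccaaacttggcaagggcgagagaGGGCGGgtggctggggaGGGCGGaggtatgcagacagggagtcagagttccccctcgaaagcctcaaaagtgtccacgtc
Col5a1, chr2:27886175-27886424: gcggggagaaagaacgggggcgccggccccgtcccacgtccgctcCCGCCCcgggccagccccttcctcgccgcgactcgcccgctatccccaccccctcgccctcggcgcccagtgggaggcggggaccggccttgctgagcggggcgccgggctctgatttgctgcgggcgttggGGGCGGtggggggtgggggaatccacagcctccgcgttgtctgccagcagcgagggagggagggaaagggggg
Col3a1, chr1:45311288-45311537: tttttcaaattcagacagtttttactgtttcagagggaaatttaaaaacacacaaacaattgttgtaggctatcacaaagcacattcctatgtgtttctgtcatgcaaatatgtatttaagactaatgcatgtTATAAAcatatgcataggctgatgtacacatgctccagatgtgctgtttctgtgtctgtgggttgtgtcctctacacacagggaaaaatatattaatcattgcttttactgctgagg
The whole windows of Col1a2 and Col5a1 held 2 matches to GGGCGG each, that of Col1a2 also held 2 to CCAAT in bases that are annotated as exon, and that of Col3a1 held 1 to TATAAA. Over all 32851 windows of the table, 35.7% held GGGCGG, 37.4% CCAAT and 13.6% TATAAA. The Col3a1 window had 37.7% G and C, the Col1a2 window 61.0% and the Col5a1 window 75.0%, against a median of 52.7%. The windows of Col6a1 and Col6a3 had 57.3% and 56.3% and no match to any of these motifs. These 2 members were lower in osteoblast-like than in chondrocyte-like cells, which Col3a1 was not in the original fit. A match describes letters and says nothing about use.

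Type I collagen separated osteoblast-like cells from every other population. Col1a1 (chr11:94936224-94953042, plus strand, mm10) was at 44866, 106764 and 103619 CPM in osteoblast-like cells of replicates 1, 2 and 3. It was at 1874, 7240 and 7777 CPM in tendon-like, 1688, 5041 and 5059 CPM in fibroblast-like and 474, 2101 and 2263 CPM in superficial-cartilage-like cells. The lowest osteoblast-like library was above the highest library of any other population, and tendon-like and fibroblast-like ranges overlapped. In both of those populations and in osteoblast-like cells, replicate 1 was the lowest library. Col1a2 (chr6:4504814-4541544) followed the same order, with 24493, 55718 and 51795 CPM in osteoblast-like, 2435, 7980 and 7946 CPM in tendon-like and 1883, 5032 and 5412 CPM in fibroblast-like cells. At equal depth, with each cell thinned to 1000 UMIs, Col1a1 was seen in 88.9%, 99.6% and 99.9% of osteoblast-like cells. The same share was 62.7%, 98.1% and 96.5% of tendon-like cells and 2.13%, 4.98% and 6.82% of leukocyte-like cells.

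Osteoblast-like cells differed from chondrocyte-like cells in 8 of the 10 members, 5 higher and 3 lower, where 16.4% of the 13040 genes tested were higher and 26% lower (edgeR's quasi-likelihood test on summed counts with the library as a block, Benjamini-Hochberg adjusted p under 0.05). Their median log2 fold change was 1.43, against -0.27 over all genes tested. Col1a1 was higher by 5.83 on the log2 scale (SE 0.97, adjusted p = 2.84e-05, edgeR), and Col1a2 by 4.63 (SE 0.65, adjusted p = 2.99e-06), both in 3 of 3 libraries. The type V chains were higher by less, Col5a1 by 2.32 (SE 0.31) and Col5a2 by 2.46 (SE 0.32). Col22a1 had the largest difference of the members, 8.36 (SE 0.56, adjusted p = 2.01e-11, edgeR). The members lower in osteoblast-like cells were both type VI chains and Col12a1, with log2 fold changes of -2.83 (Col6a1), -2.68 (Col6a3) and -3.06 (Col12a1). Col6a3 lost its call with DESeq2 (adjusted p = 0.065), without replicate 2 (edgeR adjusted p = 0.075) and without replicate 3 (0.053). Col3a1 and Col14a1 did not pass (log2 fold changes of 0.54 and -1.74). With a stricter gate Col3a1 turned to -1.66 and passed as lower in osteoblast-like cells (adjusted p = 0.0093, edgeR). Col14a1 had 1 UMI in all osteoblast-like cells together.

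**Figure D2:**
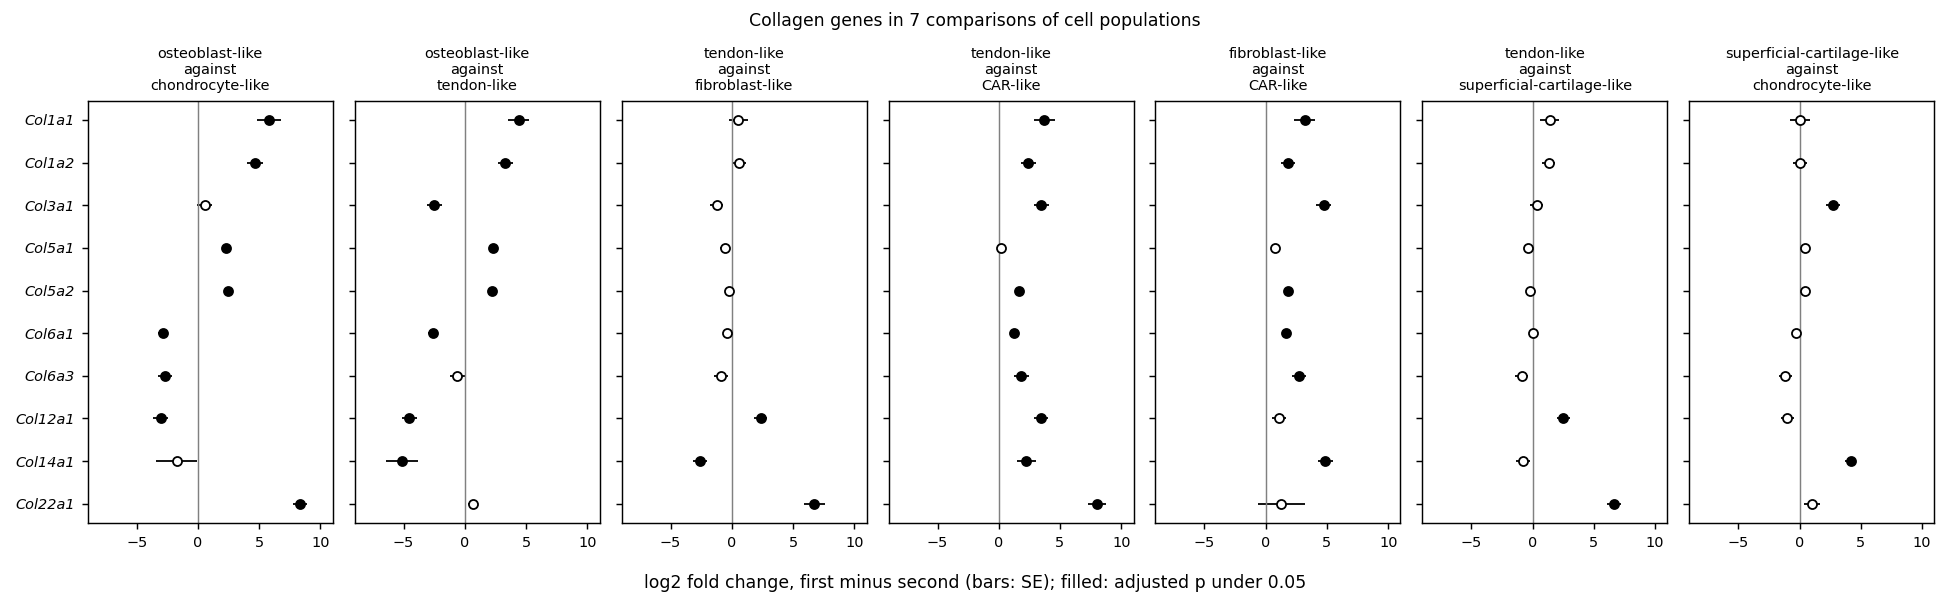
Log2 fold change of each member (horizontal axis, first population minus second, bars are SE) in the 7 comparisons, one panel each. Filled points have an edgeR adjusted p under 0.05, and the type I and type V chains are on the right in both osteoblast-like panels while both type VI chains and Col12a1 are on the left, Col6a3 being open in the comparison with tendon-like cells.

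Against tendon-like cells, which also carried type I transcripts, 4 members were higher in osteoblast-like cells and 4 lower (10.5% and 11.5% of all genes tested). The higher members were the fibril-forming chains of types I and V, Col1a1 by 4.38 (SE 0.88, adjusted p = 5.97e-04, edgeR), Col1a2 by 3.29 (SE 0.60), Col5a1 by 2.26 (SE 0.33) and Col5a2 by 2.20 (SE 0.32) on the log2 scale. Col14a1, Col12a1, Col6a1 and Col3a1 were lower, with log2 fold changes of -5.14, -4.54, -2.58 and -2.51. The value for Col14a1 rests on 1 UMI in osteoblast-like cells against 23 in tendon-like cells, a ratio of 46.7 with an exact counting interval of 7.58 to 1923. Col6a3 and Col22a1 did not pass with all libraries. Without replicate 1 both did, Col6a3 as lower in osteoblast-like cells (-1.92, adjusted p = 3.49e-08) and Col22a1 as higher (1.02, adjusted p = 7.17e-06), and all 10 members were then called. Of all genes tested, 3260 were called without replicate 1, against 2864 with all libraries. Without replicate 2, 6 members were called, Col3a1 and Col14a1 losing their calls, and 1061 of all genes.

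Osteoblast-like cells thus carried type V with type I. Col5a1 (chr2:27886425-28039514) was at 381, 601 and 655 CPM in osteoblast-like cells, above every library of fibroblast-like cells, the next population in order (138, 329 and 240 CPM). Col5a2 (chr1:45374321-45503282, minus strand) was at 1368, 2265 and 2232 CPM, again above the fibroblast-like cells (420, 856 and 681 CPM). For both type V chains the ranges of fibroblast-like, tendon-like and superficial-cartilage-like cells overlapped, so no order can be given among them. Col5a2 lies 24614 bases from Col3a1 on chromosome 1 with the opposite orientation, and the pair differed in pattern, since Col3a1 was not among the transcripts high in osteoblast-like cells.

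Osteoblast-like Col3a1 (chr1:45311538-45349706) was at 437, 116 and 62.6 CPM, and most of it came from few cells. The top 5% of osteoblast-like cells held 55.3%, 97.5% and 100% of its UMIs, against 27.4%, 23.8% and 21.2% for Col1a1 in the same cells. Col6a1 and Col6a3 were also uneven there, with 59.3% to 63.0% and 53.3% to 67.2% of UMIs in the top 5%. Whether such cells hold a second cell was not tested beyond the removal of cells with 2 markers of an unrelated list.

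Type III was highest in fibroblast-like cells. Their Col3a1 level was 1664, 5253 and 3577 CPM, against 633, 2066 and 1639 CPM in tendon-like and 419, 1095 and 1043 CPM in superficial-cartilage-like cells. Fibroblast-like cells were above tendon-like cells in 3 of 3 libraries, but the ranges overlapped and the difference did not pass (log2 fold change -1.23 for tendon-like minus fibroblast-like, SE 0.54, adjusted p = 0.28, edgeR). It passed without replicate 1 (-1.20, adjusted p = 0.011). In fibroblast-like cells the ratio of Col3a1 to Col1a1 UMIs was near 1, with a log2 ratio of -0.15 ± 0.30 (SD, n = 3). It was -1.87 ± 0.35 in tendon-like and -9.07 ± 2.11 in osteoblast-like cells.

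Col14a1 (chr15:55307750-55520803), which encodes the fibril-associated type XIV chain, was also highest in fibroblast-like cells, though at a low level. It was at 60.5, 255 and 44.2 CPM there, from 18, 59 and 7 UMIs. Superficial-cartilage-like cells had 25.3, 26.6 and 21.4 CPM and tendon-like cells 15.2, 24.5 and 15.8 CPM, and both ranges lay below that of fibroblast-like cells. CAR-like, chondrocyte-like and osteoblast-like cells were near 0, with at most 4.89 CPM in any library. Schwann-like cells of replicate 1 had 5 Col14a1 UMIs among 196452 UMIs. In tendon-like minus fibroblast-like cells the log2 fold change was -2.58 (SE 0.55, adjusted p = 0.0060, edgeR), a call that was lost without replicate 2 (adjusted p = 0.40) and with sums of at least 50 cells (0.34).

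Type XII collagen marked tendon-like cells. Col12a1 (chr9:79598991-79718831, minus strand), whose product binds type I fibrils in tendon and ligament, was at 1644, 1667 and 1458 CPM in tendon-like cells, with replicate 1 near the others. The fibroblast-like libraries had 427, 225 and 303 CPM and the superficial-cartilage-like libraries 246, 189 and 201 CPM. Osteoblast-like cells had the lowest level of the 6 populations, 66.9, 53.9 and 51.8 CPM. With cells thinned to 1000 UMIs, Col12a1 was seen in 71.1%, 71.8% and 63.3% of tendon-like cells and in 3.0%, 5.2% and 5.3% of osteoblast-like cells. Chondrocyte-like cells held 84.2, 673 and 560 CPM, so replicate 1 was far below the other libraries.

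Col22a1 (chr15:71795795-72034227, minus strand), the type XXII chain known from the myotendinous junction, was high in 2 of the 6 populations. Osteoblast-like cells had 350, 617 and 646 CPM and tendon-like cells 497, 506 and 355 CPM, and these ranges overlapped. Fibroblast-like, CAR-like, superficial-cartilage-like and chondrocyte-like cells had at most 12.6 CPM in any library, against up to 1.88 CPM in blood cells. Seen cell by cell, 66.7%, 79.7% and 67.4% of osteoblast-like cells had a Col22a1 UMI, and 45.5%, 51.7% and 36.8% of tendon-like cells, without thinning. Thinned to 1000 UMIs the shares were 29.6%, 45.9% and 47.4% and 22.6%, 29.0% and 20.6%, and at most 0.152% in leukocyte-like cells. The transcript was spread over osteoblast-like cells, the top 5% of which held 22.1%, 22.1% and 19.2% of its UMIs. Of all Col22a1 UMIs of replicates 1, 2 and 3, osteoblast-like cells held 16.7%, 67.1% and 71.2% and tendon-like cells 64.2%, 18.0% and 10.7%. The gate that held most of them thus differed between replicate 1 and the others. So did the larger of these gates, with 39, 295 and 396 osteoblast-like and 88, 60 and 57 tendon-like cells.

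**Figure D3:**
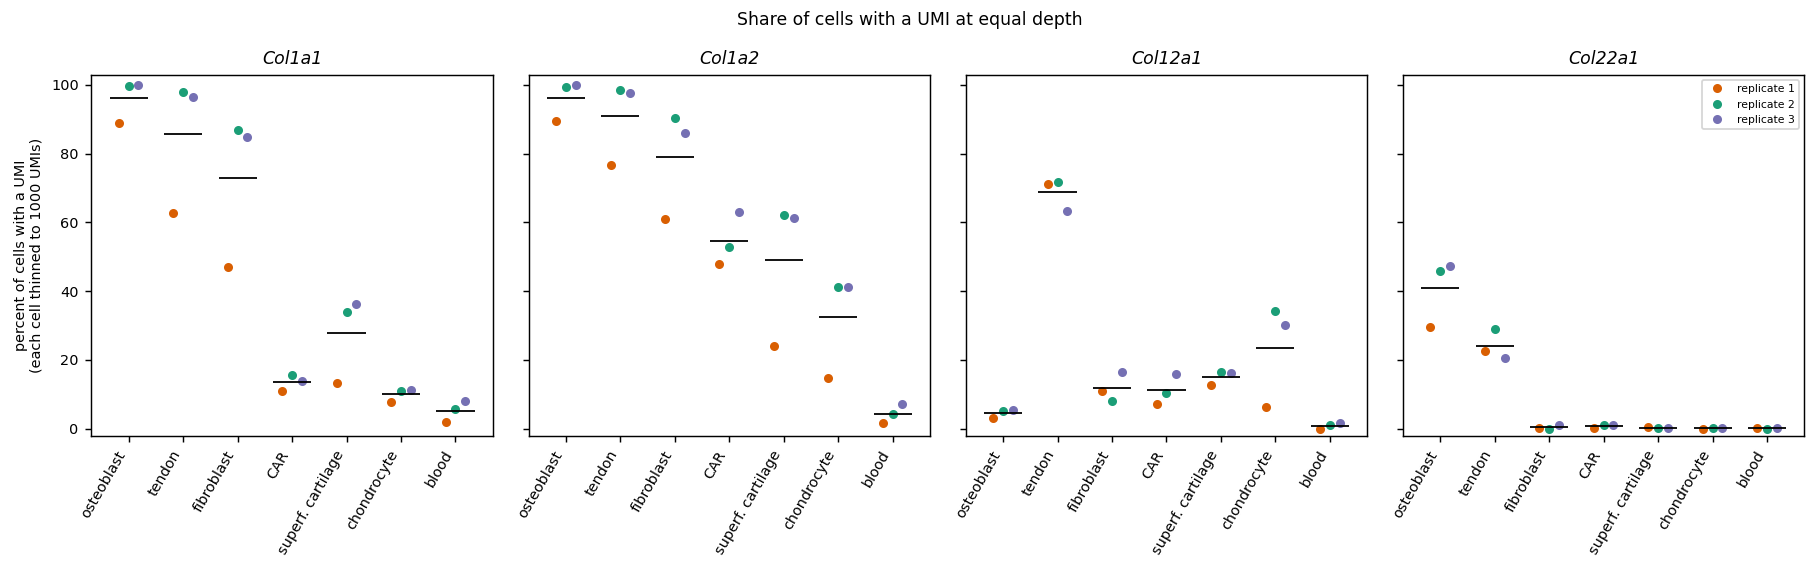
Percent of cells with at least 1 UMI after thinning each cell to 1000 UMIs (vertical axis) for Col1a1, Col1a2, Col12a1 and Col22a1 in 6 populations and in blood cells (horizontal axis). Points are libraries and lines their means. Col12a1 was seen in 63.3% to 71.8% of tendon-like cells, and Col22a1 was seen above 5% only in osteoblast-like and tendon-like cells.

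Tendon-like and fibroblast-like cells, named for their markers and not by a known tissue of origin, were compared next. Of the members, 2 were higher in tendon-like cells (2.03% of all genes tested) and 1 lower (2.12%). Col12a1 was higher by 2.34 on the log2 scale (SE 0.55, adjusted p = 0.012, edgeR), a call lost with DESeq2 (adjusted p = 0.059), without replicate 2 (0.25), without replicate 3 (0.065), with a looser gate (0.097) and with sums of at least 50 cells (0.54). Col22a1 was higher by 6.75 (SE 0.83, adjusted p = 1.10e-05), with 579 UMIs in tendon-like against 3 in fibroblast-like cells, a ratio of 108 with a counting interval of 36.7 to 525. Col14a1 was the lower member. The type I, III, V and VI chains did not pass, with log2 fold changes from -1.23 (Col3a1) to 0.61 (Col1a2). Without replicate 2 only 1 of the 3 calls was made, that of Col22a1, and the genes called of all tested fell from 541 to 92.

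The same tendon-like cells were set against superficial-cartilage-like cells, which share the marker Prg4 with cells of joint surfaces. Again 2 members were higher (7.94%) and 0 lower (10.3%), with edgeR. Col12a1 was higher by 2.50 (SE 0.53, adjusted p = 0.0012) and Col22a1 by 6.62 (SE 0.56, adjusted p = 4.79e-09), in 3 of 3 libraries each. The call of Col12a1 was lost without replicate 2 (adjusted p = 0.052). At an unadjusted p under 0.05 no member was lower, and DESeq2 also called 2. Without replicate 1, 5 members were called, Col1a1 (1.39) and Col1a2 (1.25) joining the higher members and Col6a3 (-0.53) being lower. Of all genes tested, 2401 were then called, against 2377 with all libraries.

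CAR-like cells had less of most members than either connective tissue population. Tendon-like cells were higher in 9 of 10 members (9.43% of all genes tested) and lower in 0 (11.6%), and fibroblast-like cells were higher in 7 (8.42%) and lower in 0 (10.3%). No member was lower at an unadjusted p under 0.05 or with DESeq2 in either comparison. The log2 fold changes of tendon-like minus CAR-like cells were 3.70 for Col1a1, 2.41 for Col1a2, 3.48 for Col3a1, 3.43 for Col12a1 and 8.02 for Col22a1. The exception was Col5a1 (0.18, SE 0.34, adjusted p = 0.78), which passed without replicate 1 (0.73, adjusted p = 0.046). Fibroblast-like minus CAR-like cells gave 4.72 for Col3a1 and 4.84 for Col14a1, and Col5a1, Col12a1 and Col22a1 did not pass, the last with 3 UMIs against 7. These counts depended on replicate 2, the deepest library, without which 4 and 3 members were called, and without the replicate block 7 and 5 were. The genes called of all tested fell as well without replicate 2, from 2749 to 1347 and from 2439 to 1197. Without the block they were 2456 and 2201.

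Within CAR-like cells the UMIs of the type I chains were unequal. Col1a2 was at 743, 1058 and 1334 CPM, and Col1a1 at 171, 638 and 450 CPM, so Col1a2 had more UMIs in 3 of 3 libraries. Capture may differ between these transcripts, so this gives no order of the chains themselves. Col1a2 was seen in 87.9%, 91.2% and 89.8% of CAR-like cells and Col1a1 in 33.2%, 52.5% and 36.1%. Most CAR-like cells thus held a Col1a2 UMI in each library, while most held a Col1a1 UMI only in replicate 2. In leukocyte-like cells, which are deeper, the shares were 7.14% to 27.3% for Col1a2 and 11.9% to 37.3% for Col1a1, and in replicate 3 the Col1a1 share of CAR-like cells (36.1%) was close to it (32.9%). Erythroid-like cells of replicate 3 were near CAR-like cells in Col1a1 level (430 against 450 CPM), with 30.9% of cells having a UMI. Thinned to 1000 UMIs, Col1a1 was seen in 11.1%, 15.6% and 13.8% of CAR-like and 2.13%, 4.98% and 6.82% of leukocyte-like cells. The top 5% of CAR-like cells held 59.6%, 83.2% and 78.3% of Col1a1 UMIs but 22.7%, 29.5% and 34.1% of Col1a2 UMIs. With presumed doublets kept, the mean Col1a1 level of CAR-like cells was 810 CPM in place of 420.

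The balance of the chains differed by population for types I and VI more than for type V. The log2 ratio of Col1a1 to Col1a2 UMIs was 0.94 ± 0.06 (SD, n = 3) in osteoblast-like cells, that is 1.83, 1.92 and 2.00 UMIs of the first per UMI of the second. Since capture may differ between the transcripts, this is no count of chains. It was -0.18 ± 0.18 in tendon-like, -0.08 ± 0.08 in fibroblast-like, -0.28 ± 0.10 in superficial-cartilage-like and -1.47 ± 0.70 in CAR-like cells. The osteoblast-like ratio lay above the range of each of these. In blood cells it was 0.71 ± 0.41, from 0.47 to 1.18 over the libraries. What free RNA and mixed droplets add to the ratios of the other populations was not tested. In chondrocyte-like cells it was -1.50 and -1.52 in replicates 2 and 3 but 0.28 in replicate 1.

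**Figure D4:**
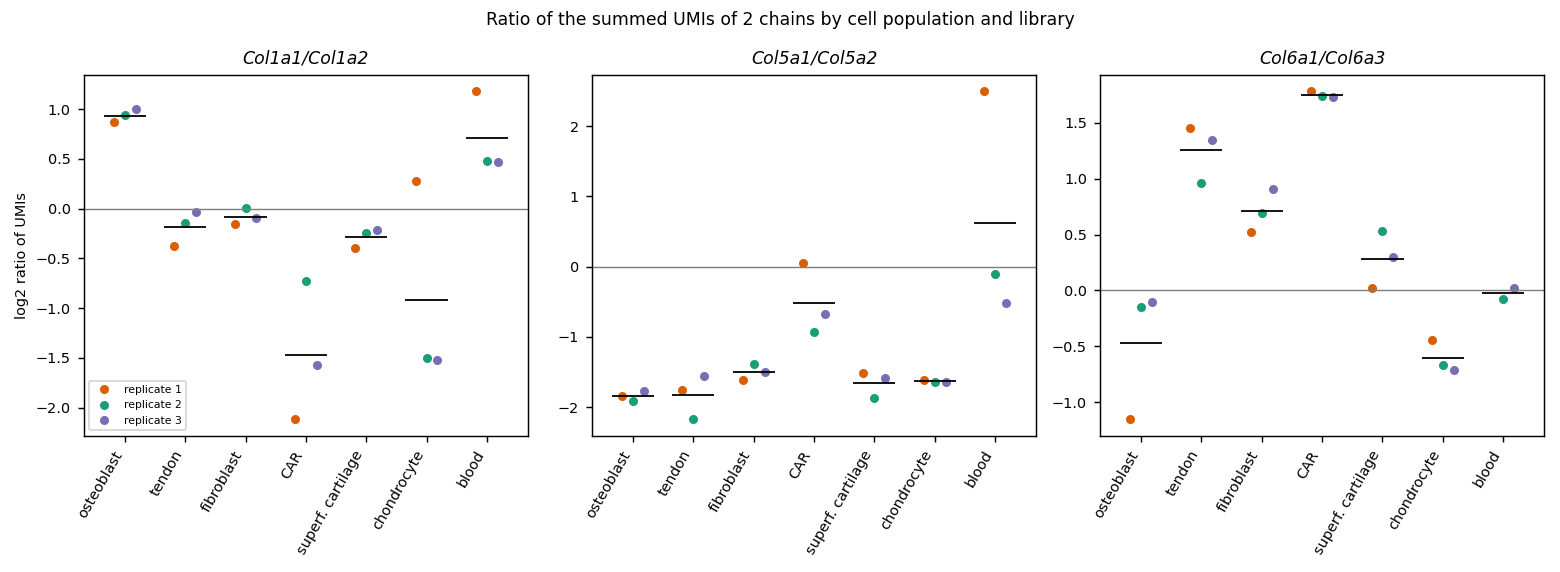
Log2 ratio of summed UMIs (vertical axis) of Col1a1 to Col1a2, Col5a1 to Col5a2 and Col6a1 to Col6a3 in 6 populations and in blood cells (horizontal axis). Points are libraries and lines their means. The type I ratio is positive in all 3 osteoblast-like libraries and negative in all 3 CAR-like libraries, and blood cells of replicate 1 have no value for type VI because Col6a3 had no UMI there.

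Where in the gene the Col5a1 UMIs lie was not examined here, and erythroid-like cells carried some without much Col5a2 in replicate 1 (57.5 against 5.39 CPM), which limits what the Col5a1 levels and the ratio below stand for. For type V, the log2 ratio of Col5a1 to Col5a2 stayed between -2.17 and -1.38 in every library of osteoblast-like, tendon-like, fibroblast-like, superficial-cartilage-like and chondrocyte-like cells. CAR-like cells were outside this range, at -0.52 ± 0.51. For type VI, Col6a1 exceeded Col6a3 in CAR-like cells (1.75 ± 0.03), tendon-like cells (1.25 ± 0.26) and fibroblast-like cells (0.71 ± 0.19). The ratio was 0.28 ± 0.26 in superficial-cartilage-like cells. Col6a3 exceeded Col6a1 in chondrocyte-like cells (-0.61 ± 0.14) and, from fewer UMIs, in osteoblast-like cells (-0.47 ± 0.59), where the sign turned in replicates 2 and 3 with the stricter gate (0.029 and 0.074), and the ranges of chondrocyte-like and tendon-like cells did not overlap. No test was made on the ratios, and capture of the transcripts may differ, so only the differences between populations are read.

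Type VI was found in chondrocyte-like as well as in fibroblast-like cells. Col6a3 (chr1:90765923-90843971, minus strand) was at 442, 890 and 886 CPM in chondrocyte-like cells, and at 350, 558 and 511 CPM in fibroblast-like cells, with overlapping ranges. Col6a1 (chr10:76708792-76726168, minus strand) was at 325, 562 and 540 CPM in chondrocyte-like cells and highest in fibroblast-like cells (501, 904 and 959 CPM), and from fibroblast-like to superficial-cartilage-like cells each range overlapped with the next. In replicates 2 and 3, chondrocyte-like cells held 93.1% and 91.7% of all Col6a3 UMIs and 93.2% and 92.0% of all Col12a1 UMIs. They were 70.7% and 69.1% of the cells there. In replicate 1 they held 28.6% of Col6a3 and 4.5% of Col12a1 UMIs and were 9.89% of the cells. A sum of these members over all cells would therefore mostly describe chondrocyte-like cells in 2 of the 3 libraries.

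Superficial-cartilage-like cells were higher than chondrocyte-like cells in 2 members (10.8% of all genes tested) and lower in 0 (13.1%). The higher members were Col3a1 by 2.71 (SE 0.57, adjusted p = 0.0011, edgeR) and Col14a1 by 4.19 (SE 0.45, adjusted p = 3.97e-07), in 3 of 3 libraries each. The call of Col3a1 was lost without replicate 2 (adjusted p = 0.069). Col6a3 was lower at an unadjusted p of 0.032 (log2 fold change -1.17, adjusted p = 0.10), and DESeq2 also called 2 members. Col6a3 passed as lower with the stricter gate (adjusted p = 0.040), the looser gate (0.042), sums of at least 50 cells (0.030) and no filter on low counts (5.13e-06), the last of which also called Col12a1 lower. The count depended most on replicate 1. Without it 8 members were called, and the genes called of all tested rose as well, from 3113 to 5677. Col1a1 (2.45, adjusted p = 9.45e-09, edgeR), Col1a2 (1.17), Col5a1 (0.63) and Col5a2 (0.71) were then also higher and Col6a3 (-1.31) and Col12a1 (-1.75) lower.

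The type I level of chondrocyte-like cells in replicate 1 came from few cells. Col1a1 was at 2104, 372 and 380 CPM in chondrocyte-like cells of replicates 1, 2 and 3, and the top 5% of cells held 98.1%, 86.1% and 84.6% of it. These cells were divided by Ibsp, a gene of hypertrophic cartilage that osteoblasts also express, at the threshold used for gate markers. The cells with Ibsp on had 7968, 958 and 769 CPM of Col1a1 and the others 14.1, 194 and 192 CPM. Col3a1 was divided the same way, with 371, 350 and 284 CPM against 9.38, 34.0 and 52.7 CPM. Col12a1 went the other way in replicates 2 and 3, with 326 and 293 CPM in the cells with Ibsp on against 779 and 690 CPM in the others. Col6a3 was lower with Ibsp on in 3 of 3 libraries, at 294, 591 and 629 against 494, 981 and 1011 CPM. No test was made on this division, and the part of mixed droplets in it was not tested.

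The shares of all genes called in each comparison, given above, are the background for the counts of the lists that follow, and medians over all genes lay between -0.27 and 0.0092. Among the genes that fold and modify collagen chains in the endoplasmic reticulum (21 listed, 21 tested), 4 were higher and 9 lower in osteoblast-like than in chondrocyte-like cells (16.4% and 26% of all genes), with a median log2 fold change of -0.42, against -0.27 over all genes. Creb3l1, a transcription factor that acts on type I collagen genes, was the highest of those called (1.63, SE 0.31), and P4ha3, a subunit of a prolyl hydroxylase, the lowest (-4.46, SE 0.78), from 2 UMIs in osteoblast-like against 2316 in chondrocyte-like cells, a ratio of 24.8 with an exact counting interval of 6.86 to 205. Against tendon-like cells 9 were higher and 2 lower (median 0.68), led by Plod2, a lysyl hydroxylase that prepares crosslinks (2.95, SE 0.39), and by P3h2, a prolyl 3-hydroxylase (-3.50, SE 0.39). Tendon-like cells had 1 higher (P3h2, 1.85) and 1 lower (Colgalt2, which adds galactose to collagen, -2.67) than fibroblast-like cells (median 0.12). They had 2 higher and 2 lower than CAR-like cells (median 0.12), from Plod1, another lysyl hydroxylase (1.77), to Creb3l1 (-1.12). Against superficial-cartilage-like cells 1 was higher (Plod1, 0.76) and 8 lower (median -0.24), led by Colgalt2 (-4.16, SE 0.47). Fibroblast-like minus CAR-like cells gave 2 and 1 (median 0.045), from Colgalt2 (2.84) to P3h2 (-2.57), and superficial-cartilage-like minus chondrocyte-like cells 1 and 3 (median -0.43), from P3h2 (0.85) to P4ha3 (-1.88).

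Of the genes for maturation and crosslinking outside the cell (14 listed, 14 tested), 6 were higher and 5 lower in osteoblast-like than in chondrocyte-like cells (16.4% and 26% of all genes), with a median of -0.11. Adamts2, the procollagen N-proteinase, was higher by 4.12 (SE 0.25, adjusted p = 2.43e-12, edgeR), while Pcolce2, an enhancer of C-terminal cleavage, was lower, with a log2 fold change of -4.58 (SE 0.38). Osteoblast-like minus tendon-like cells gave 4 higher and 3 lower (median 0.11), from Adamts14, another procollagen N-proteinase (4.54, SE 1.00), to Tnxb (-3.99, SE 0.71). These rest on few UMIs. Adamts14 had 37 UMIs in osteoblast-like against 1 in tendon-like cells (ratio 18.2, counting interval 3.08 to 739), and Tnxb 32 in tendon-like against 3 in osteoblast-like cells (ratio 21.6, 6.77 to 110). Tnxb encodes tenascin X, a matrix protein that binds fibrils, and was at 252 ± 84.4 CPM (SD, n = 3) in fibroblast-like cells, 71.2 ± 14.1 in superficial-cartilage-like and 24.7 ± 6.62 in tendon-like cells. It was also the lowest of those called in tendon-like minus fibroblast-like cells (-3.15, SE 0.34), where 2 were higher, led by Adamts3 (3.51, SE 0.63), and 2 lower (median 0.36). Tendon-like cells had 6 higher and 4 lower than CAR-like cells (median 1.09), from Pcolce2 (2.95) to Adamts14 (-5.53), which had 1 UMI in tendon-like against 195 in CAR-like cells (ratio 54.4, counting interval 9.65 to 2160). They had 6 and 3 than superficial-cartilage-like cells (median 0.52), from Adamts3 (3.60) to Tll1, a C-proteinase (-5.04), which had 2 UMIs against 328 (ratio 18.1, counting interval 4.98 to 150). Fibroblast-like minus CAR-like cells gave 4 and 5 (median -0.057), from Pcolce2 (5.70) to Loxl1, a lysyl oxidase (-3.02). Superficial-cartilage-like minus chondrocyte-like cells gave 4 and 6 (median -0.31), from Tnxb (3.95) to Pcolce2 (-2.83).

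The other chains of fibrils, of type VI and of the fibril-associated group (17 listed, 14 tested) were mostly lower in osteoblast-like than in chondrocyte-like cells, 3 being higher and 10 lower (16.4% and 26% of all genes), with a median log2 fold change of -2.70. Col6a6, a further type VI chain, led the higher ones (3.11, SE 0.47) and Col19a1 the lower. Col19a1 had 0 UMIs in osteoblast-like against 374 in chondrocyte-like cells. Its level was lower by a factor of 2.67 with 3 UMIs over the 3 osteoblast-like libraries taken as the floor, and the exact counting interval begins at 2.16. With Col19a1 at that floor the median of the list was -2.22. Against tendon-like cells 7 were higher and 3 lower (median 1.19), from Col11a2 (4.26, SE 0.45), a chain of the type XI collagen related to type V, to Col5a3 (-3.11, SE 0.82), the further chain of type V. Tendon-like cells had 1 higher and 0 lower than fibroblast-like cells (Col11a1, 1.60; median -0.36). They had 5 and 2 than CAR-like cells (median 0.42), from Col24a1 (5.17) to Col5a3 (-1.36), and 1 and 6 than superficial-cartilage-like cells (median -1.16), from Col5a3 (2.01) to Col2a1, the cartilage fibril chain (-3.42). Fibroblast-like minus CAR-like cells gave 6 and 0 (median 0.44), led by Col24a1 (4.52), and superficial-cartilage-like minus chondrocyte-like cells 0 and 7 (median -1.30), led by Col9a1 (-4.02). Where edgeR called 0, an unadjusted p under 0.05 was reached by 1, 0 and 1 genes in these comparisons, in the order given, and DESeq2 called 0 in each.

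The genes with patterns most like each member were read from Pearson correlations of log2(CPM + 10) over 26 sums of library and population, among 10799 genes. These sums share libraries and their depth, and r is given as a description. Col1a1 was most like Col1a2 (r = 0.96), followed by Mmp16 and Tmem119 (0.91 and 0.90), and Col1a2 most like Col1a1, Col5a2 and Nupr1 (0.92 for the last). Col5a1 was most like Col5a2 (0.94), followed by Gm42418 and Lars2 (0.93 and 0.91), and Col5a2 was next most like Col1a2 (0.93) and Tob1 (0.92). In types I and V each chain was thus nearest to its partner. The type VI chains paired with Col6a2, the third chain of the type VI monomer, at 0.99 for Col6a1 (followed by Htra1 and Timp2) and 0.92 for Col6a3 (where Thbs3 came first, also at 0.92). Col14a1 was most like Tnxb (0.93), followed by Wnt6 and Ltbp4, and Col12a1 was most like Fmod, which encodes the tendon proteoglycan fibromodulin (0.91), followed by Tshz2 and Cdkn1c. Col22a1 was most like Lpar3 (0.91), Col13a1 (0.90) and Ccser1 (0.89), and Col3a1 like Eid2 (0.95), Rgmb (0.94) and Dpysl2 (0.93).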

How the data were processed

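Alcam+Sca-1- BLCs of WT mice were profiled in 3 libraries. Per the labels, the authors aligned reads to mm10 and used Cell Ranger (version 7.1.0) to count UMIs. What they deposited are raw counts for the barcodes it called as cells. They hold fewer barcodes than the cell total the study states, and its clusters were not used here. Members and lists were chosen with earlier results of these data known, and the gate rule after the files had been seen, on markers alone.

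A cell needed 200 genes or more, and no more than 20% of its UMIs from mitochondria. This dropped 825 barcodes. On the scale log2(1 + UMIs per 10000), a marker was on above 0.5 of the highest library's 99.5th percentile. A cell joined the list with most markers on, at least 2 and 1 more than the next, of 11 lists (Ahsp was not in the rows used). Of the hypertrophic cartilage markers fixed for a division of chondrocyte-like cells (Ibsp, Ihh and Panx3), Ibsp alone was used. No doublet caller was run: 693 cells (3.56%) with 2 markers of an unrelated list were removed. The set of related lists was widened once after the first version removed many tendon-like cells.

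UMIs were summed per library and gate (at least 20 cells) and tested with edgeR (version 4.0.16; TMM, filterByExpr, quasi-likelihood) in 1 fit over all such gates, with the library as a block because gates of 1 library come from the same cell suspension, and Benjamini-Hochberg adjustment over 13040 genes. DESeq2 (version 1.42.0) was an alternative, and the fit was tested on simulated data. Named genes were all members, the called gene with the largest fold change in each direction of each pathway list, and the 3 genes most like each member among those of at least 20 CPM in some gate, gate markers left out. Libraries held 20985636, 79905165 and 69890252 UMIs. Thinned shares are expected values over cells of at least 1000 UMIs. Intervals are exact at 95% and cover counting error only.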

Additional observations from a re-analysis of the deposited data

How the results depend on the processing

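Unless stated, values are counts of members called, or log2 fold changes, in the comparisons of the report with edgeR. Of 820 log2 fold changes of members recomputed under other settings, 731 kept their direction and their side of the threshold, 36 lost a call, 29 gained one and 24 changed sign, none of the last with a call in the original fit. Leaving out 1 library at a time, the members called ranged from 1 to 4 for tendon-like against fibroblast-like cells, from 4 to 9 for tendon-like against CAR-like, from 3 to 8 for fibroblast-like against CAR-like, from 1 to 5 for tendon-like against superficial-cartilage-like and from 1 to 8 for superficial-cartilage-like against chondrocyte-like, the lowest each time without replicate 2. The genes called of all tested ranged from 2969 to 6092 (5522 with all libraries) for osteoblast-like against chondrocyte-like, from 1061 to 3260 (2864) for osteoblast-like against tendon-like, from 92 to 615 (541) for tendon-like against fibroblast-like, from 1347 to 2591 (2749) for tendon-like against CAR-like, from 1197 to 2033 (2439) for fibroblast-like against CAR-like, from 1083 to 2401 (2377) for tendon-like against superficial-cartilage-like and from 563 to 5677 (3113) for superficial-cartilage-like against chondrocyte-like. Why these counts fell or rose when a library was left out was not tested.

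Without a filter on low counts 5, 5 and 4 members were called for tendon-like against fibroblast-like, tendon-like against superficial-cartilage-like and superficial-cartilage-like against chondrocyte-like, in place of 3, 2 and 2; the cause was not tested. With sums of at least 50 cells, which leave 1 fibroblast-like library, tendon-like against fibroblast-like gave 1 member and 232 genes, and fibroblast-like against CAR-like 1186 genes. Without the replicate block, that is without pairing populations by library, the members called were 8, 8, 3, 7, 5, 2 and 2 in the order of the plot of fold changes, so Col6a1 and Col6a3 (tendon-like against CAR-like) and Col1a2 and Col6a1 (fibroblast-like against CAR-like) lost their calls. The stricter gate left under 20 fibroblast-like cells per library and gave no value for that gate.

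Changes of sign among values that did not pass with all libraries were as follows. Col3a1 in osteoblast-like minus chondrocyte-like cells was -0.35 to 1.01 leaving out libraries, -1.66 with the stricter gate, where it passed (adjusted p = 0.0093), and -0.75 with sums of at least 50 cells. Col6a3 in osteoblast-like minus tendon-like cells was -1.92 to 0.32 leaving out libraries. Col5a1 was 0.0011 in tendon-like minus fibroblast-like cells with sums of at least 50 cells, and in tendon-like minus CAR-like cells -0.076 to 0.73 leaving out libraries and -0.012 with the looser gate. Col22a1 in fibroblast-like minus CAR-like cells was -0.054 with the looser gate and -0.34 with doublets kept. In tendon-like minus superficial-cartilage-like cells Col3a1 was -0.081 with the looser gate, and Col6a1 -0.10 to 0.14 leaving out libraries, -0.070 without the low count filter, -0.011 with the looser gate, -0.038 without the cell filter and -0.051 with sums of at least 50 cells. In superficial-cartilage-like minus chondrocyte-like cells, leaving out libraries gave -0.86 to 2.45 for Col1a1, -0.52 to 1.17 for Col1a2 and -0.52 to 1.84 for Col22a1, and the stricter gate -0.027, -0.080 and -0.50. RLE scaling changed no sign and no call of a member, and moved the median of all genes by 0.26 in osteoblast-like against chondrocyte-like and 0.16 in tendon-like against superficial-cartilage-like cells; DESeq2 moved them by 0.34 and 0.19 and fibroblast-like against CAR-like by 0.12.

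The fibroblast-like and tendon-like gates held 37 to 88 cells per library, which limits members of few UMIs such as Col14a1.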

Other observations

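Col5a1 was uneven between blood cell types. Erythroid-like cells had 57.5, 21.6 and 40.5 CPM of it in replicates 1, 2 and 3, from 64, 9 and 18 UMIs, and leukocyte-like cells 1.92, 2.00 and 8.82 CPM, from 4, 4 and 19 UMIs. A Col5a1 UMI was seen in 29.1%, 19.4% and 16.2% of erythroid-like cells, at a median depth of 3965, 9291 and 4642 UMIs, against 2.38%, 2.73% and 4.83% of leukocyte-like cells at 15278, 18217 and 9598 UMIs. Its partner chain Col5a2 was at 5.39, 9.58 and 49.5 CPM in erythroid-like cells. In replicate 1 Col5a1 was the most abundant member there, above Col1a1 at 11.7 CPM. The genes most like Col5a1 over all sums, after Col5a2, were Gm42418 (r = 0.93) and Lars2 (0.91).

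Pericyte-like cells reached 20 cells in replicate 1 alone. Its 54 pericyte-like cells, marked by Rgs5 and Myh11, had 272 CPM of Col6a3, seen in 55.6% of cells, against 105 CPM of Col6a1. With 1 library, these values have no replicate check.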
